A study of Homo sapiens with 16 samples.

Results

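The genes described here are the aminoacyl-tRNA synthetases of human cells and the scaffold proteins that hold some of them together. They were listed by gene name, and the list was drawn up with earlier results of these data known. It holds 19 genes for cytosolic enzymes or their subunits, 16 for mitochondrial enzymes and 3 for scaffold proteins. GARS1 and KARS1 encode both the cytosolic and the mitochondrial form and are counted as cytosolic. All 38 were found among the 58051 genes of the deposited table, under older names in the gene annotation for most cytosolic enzymes (AARS for AARS1). RNA was sequenced from P493-6 cells, an established human B cell line in which doxycycline represses a MYC transgene and estradiol activates an EBNA2 fusion protein. The cells were grown in DMEM with fetal bovine serum and sampled in 4 groups of 4 libraries. The high-MYC groups received no additive. The medium-MYC groups received doxycycline at 0.1 µg/mL and beta-estradiol at 1 µM, starting 24 h before treatment. At each MYC level, 1 group was then given IMP1088 at 100 nM for 24 h, and the other received the solvent DMSO as its control. IMP1088 blocks NMT1 and NMT2, the enzymes that attach the fatty acid myristate to protein N-termini. The design asks what the inhibitor changes at each MYC level, whether that change differs between the levels, and what the MYC level itself changes. MYC level, doxycycline and estradiol cannot be told apart in this design. All libraries come from 1 cell line, and nothing in the sample descriptions says that the replicates were separate cultures, so the p-values measure the spread between these libraries, which may be technical.

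Aminoacyl-tRNA synthetases join each amino acid to its transfer RNA, the step that makes the genetic code readable by the ribosome. Nuclear genes encode both the enzymes of the cytosol and those imported into mitochondria, which serve the small set of proteins translated from mitochondrial DNA. In the cytosol, several synthetases form a large complex around the scaffold proteins AIMP1, AIMP2 and EEF1E1 (also called AIMP3). When uncharged transfer RNA accumulates or other stress kinases act on eIF2alpha, the transcription factor ATF4 is translated and induces amino acid transporters, synthesis enzymes and many cytosolic synthetase genes. MYC is known for raising the expression of genes for protein synthesis, synthetases among them.

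The values are normalized counts, which the numbers themselves show to be whole reads divided by 1 factor per library, with 8755296 to 13858534 reads in a library. A gene was tested where its mean over the 16 libraries was at least 10, which left 13765 genes and all 38 synthetase and scaffold genes. Their means ran from 52.2 for FARS2 to 5031 for IARS1. A change is a difference of mean log2(normalized count + 1), given with its standard error (SE), and a gene was called at a limma adjusted p under 0.05, with the adjustment over all tested genes. MYC itself averaged 31649 ± 2130 (SD, n = 4) and 47542 ± 505 in the high-MYC control and inhibitor groups, and 959 ± 48.7 and 1382 ± 51.2 in the medium-MYC groups. NMT1 lay between 1417 and 1807 in all 16 libraries, and NMT2 between 1.04 and 27.2. All 6 B cell markers were present in every group (summed value 23822 to 24000 in high-MYC controls, 19245 to 20206 with the inhibitor, 38767 to 39481 in medium-MYC controls and 34125 to 35360 with the inhibitor). Summed values of 4 myeloid markers were 63.5 to 94.9 at high MYC and 178 to 241 at medium MYC, those of 4 T cell markers at most 77.9 and those of 4 epithelial markers at most 112. The part of these markers in the results was not tested.

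Several of these genes share exonic bases with a neighbour, and whether the reads were counted by strand is not given in the sources used here. In GENCODE 29, 22 of the 38 overlap another annotated gene in their exons. The overlaps include MARS1 with DDIT3 and ARHGAP9, WARS1 with WDR25, YARS1 with S100PBP, HARS1 with HARS2, KARS1 with TERF2IP, CARS2 with ING1, EARS2 with UBFD1, AIMP1 with TBCK and AIMP2 with EIF2AK1. For SARS2 the shared bases were 1841 of 3231, and VARS2 shared 1858 of 8448 with GTF2H4 on the same strand. AARS1, FARSB, GARS1, KARS1, NARS1, RARS1, WARS1, CARS1, IARS2, TARS2, WARS2, AIMP1 and EEF1E1 also have annotated pseudogenes named after them. Values of these genes are uncertain to the extent that reads were split or shared.

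Cytosolic synthetase RNAs were more abundant than mitochondrial ones. On the scale of normalized counts per kilobase of transcript, the median level in high-MYC controls was 541.7 over the 19 cytosolic genes and 188 over the 16 mitochondrial genes. IARS1, for isoleucine, was highest at 1474 ± 39.7 per kilobase (SD, n = 4), followed by KARS1, for lysine, at 1084 ± 11.9 and QARS1, for glutamine, at 965 ± 19.1. These 3 levels differed by more than their SDs, whereas EPRS1 (672 ± 11.8), AARS1 (655 ± 5.71) and LARS1 (652 ± 21.4) lay within a few percent of each other and their spreads met. CARS1, for cysteine, was the lowest cytosolic gene at 166 ± 5.57. Among mitochondrial enzymes CARS2 was highest at 498 ± 16.5 per kilobase, with EARS2 (424 ± 21.4) and IARS2 (421 ± 18.4) next and not apart beyond their spread. FARS2, for phenylalanine, was lowest at 31.9 ± 2.58, below PARS2, for proline, at 41.6 ± 6.81. In medium-MYC controls the medians were 371.8 and 98.2 per kilobase, and WARS1, for tryptophan, led the order at 705 ± 8.75, ahead of KARS1 (666 ± 23.8), QARS1 (665 ± 23.4) and TARS1 (652 ± 29.3), whose spreads overlapped.

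As a share of all reads, the 19 cytosolic genes together took 0.369% ± 0.0044 (SD, n = 4) in high-MYC controls and 0.365% ± 0.00746 with the inhibitor. At medium MYC the shares were 0.230% ± 0.00123 in controls and 0.263% ± 0.00186 with the inhibitor, and the 4 inhibitor libraries (0.262% to 0.266%) lay above the 4 controls (0.228% to 0.231%). The 16 mitochondrial genes took 0.0826% ± 0.0025 and 0.0832% ± 0.000899 at high MYC, and 0.0481% ± 0.000503 and 0.0473% ± 0.00106 at medium MYC. The ratio of the cytosolic to the mitochondrial sum was 4.36 to 4.60 in high-MYC controls, 4.24 to 4.52 in the high-MYC inhibitor libraries, 4.74 to 4.81 in medium-MYC controls and 5.46 to 5.66 in the medium-MYC inhibitor libraries. On the scale of summed normalized counts, the cytosolic genes at high MYC came to 38019 to 38502 in controls and 36342 to 37835 with the inhibitor. Those groups do not overlap and are lower with the inhibitor, while the shares of reads overlap (0.364% to 0.374% against 0.354% to 0.371%), so at high MYC the picture depends on the scaling. At medium MYC the cytosolic sums were 23435 to 24314 and 26415 to 26889, apart on both scales. The mitochondrial shares overlapped at both MYC levels. These sums are descriptions and weight the abundant genes most.

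**Figure D1:**
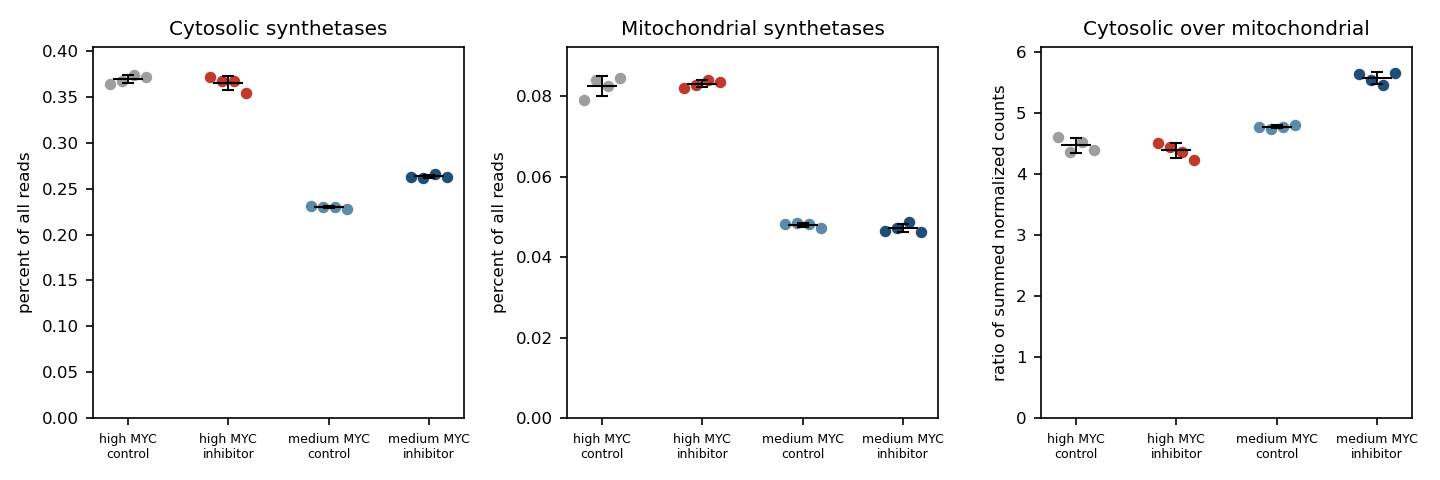
Share of all reads taken by the 19 cytosolic and the 16 mitochondrial synthetase genes (left and middle, percent, axes from 0) and the ratio of their summed normalized counts (right, axis from 0). Points are libraries, horizontal bars means and vertical bars SDs (4 libraries a group). The ratio was 5.46 to 5.66 in the medium-MYC inhibitor libraries and 4.24 to 4.81 in the other 12.

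At medium MYC, the inhibitor raised 11 of the 19 cytosolic synthetase genes and lowered none. Among all tested genes 11.7% were called higher and 14.6% lower in this comparison, 26.3% in either direction. The median change over the 19 was 0.11 on the log2 scale, against -0.01 over all tested genes. The increases were moderate, from 1.07-fold to 1.38-fold.

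GARS1 encodes the glycine enzyme in both its cytosolic and its mitochondrial form. Its normalized counts were 1035, 1041, 1131 and 1094 in the medium-MYC controls and 1457, 1475, 1487 and 1528 with the inhibitor. All inhibitor libraries lay above all controls. The change was 0.47 (SE 0.03), or 1.38-fold, with a limma adjusted p of 1.2e-09. CARS1 read 468.3, 477.7, 487.5 and 492.4 in controls and 618.6, 632.8, 661.1 and 626.2 with the inhibitor, again without overlap, a change of 0.40 (SE 0.05, limma adjusted p = 9.7e-06). EPRS1, the fused enzyme for glutamate and proline, read 1319, 1285, 1286 and 1360 in controls against 1689, 1692, 1659 and 1754. That rise of 0.37 (SE 0.03, limma adjusted p = 1.79e-08) also separated the groups. IARS1 rose by 0.33 and WARS1 by 0.27. SARS1, for serine, rose by 0.25, and so did MARS1, for methionine. In these 7 genes and in YARS1, for tyrosine (0.11), the inhibitor libraries did not overlap the controls, a pattern seen in the higher direction in 12.4% of all tested genes. LARS1 for leucine (0.13), RARS1 for arginine (0.13) and TARS1 for threonine (0.10) were called with overlapping libraries.

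The calls of the smaller changes depended on single libraries and on the settings of the fit. RARS1 lost its call in 5 of the 14 alternative settings and TARS1 in 7 of 14. RARS1 was no longer called without medium-MYC control replicate 1, 2 or 4, or without inhibitor replicate 1, 3 or 4, at changes of 0.10 to 0.13 (limma adjusted p = 0.0719 to 0.136). TARS1 was no longer called without control replicate 1, 2 or 4 or inhibitor replicate 1, 2 or 4 (0.08 to 0.10), nor YARS1 without inhibitor replicate 3 (0.09). The other 8 remained called in each of the 22 alternative fits run for this comparison.

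MARS1 shares exonic bases with DDIT3, a stress-induced gene on the opposite strand. DDIT3 rose from 48.1 ± 8.46 to 154 ± 9.81 normalized counts (mean ± SD, n = 4) while MARS1 rose from 1234 ± 70.4 to 1463 ± 22.4. How many of the added MARS1 reads fall in the shared bases was not tested.

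The 8 cytosolic genes that were not called at medium MYC had changes between -0.08 and 0.10. NARS1, for asparagine, was at 0.10, AARS1, for alanine, at 0.04, and the phenylalanine subunits FARSA and FARSB at 0.03 and -0.00. KARS1 stood at 0.03 (95% interval -0.03 to 0.09) and QARS1 at -0.00 (95% interval -0.07 to 0.07). HARS1, for histidine, and VARS1, for valine, were both at -0.08. The intervals of KARS1 and QARS1 leave out the changes of 0.33 and more measured in GARS1, CARS1, EPRS1 and IARS1.

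KARS1 and QARS1 belong, with EPRS1, IARS1, LARS1, MARS1 and RARS1, to the 7 cytosolic enzymes of the multi-synthetase complex. Of these 7, 5 were called higher at medium MYC, against 6 of the 12 outside it. This grouping was drawn up after the values had been seen.

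**Figure D2:**
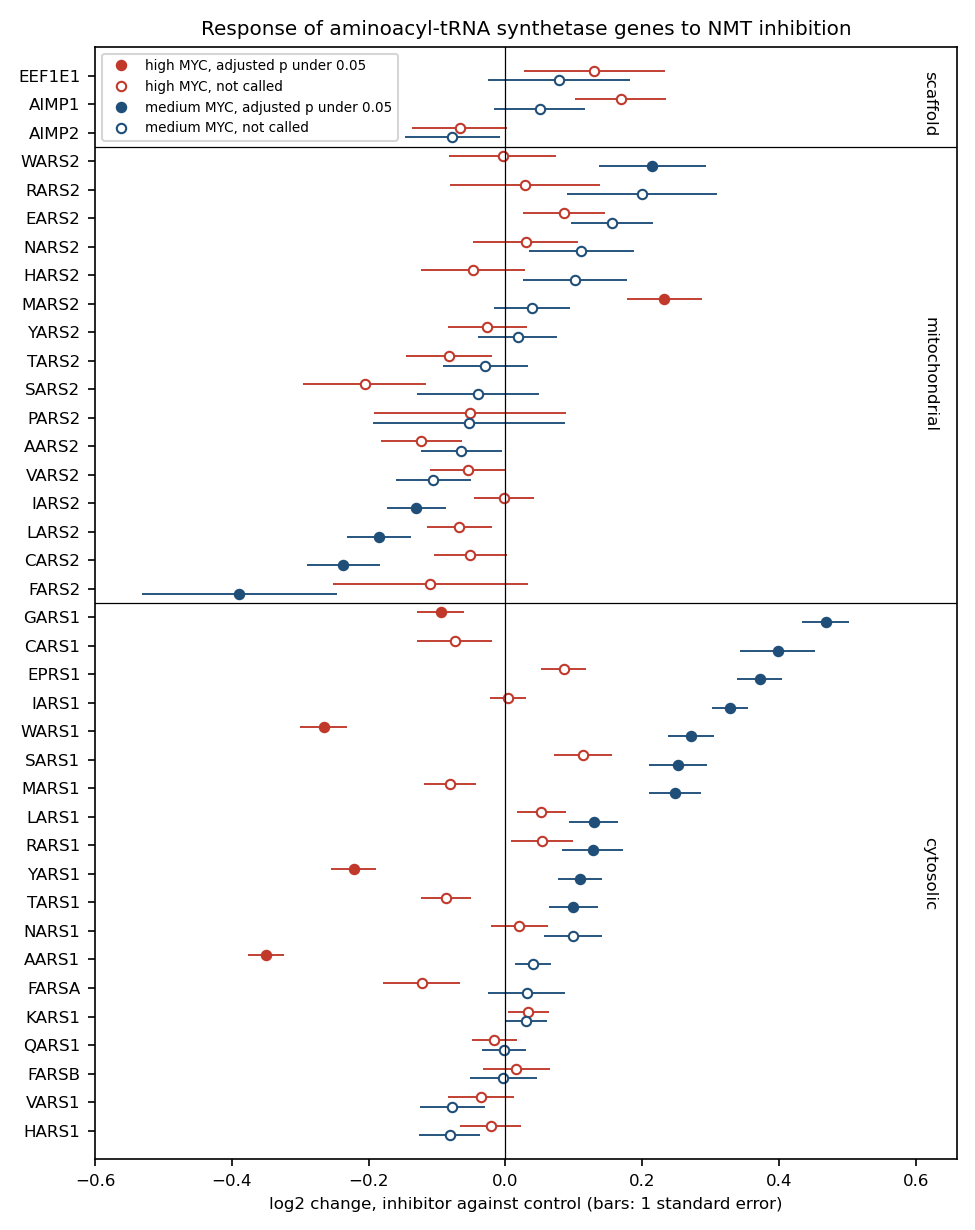
Change in each gene between inhibitor and DMSO control (horizontal axis, log2 scale, bars 1 SE) at high MYC (red) and at medium MYC (blue), by class. Filled points are called at a limma adjusted p under 0.05. At medium MYC 11 of 19 cytosolic genes lie to the right of 0 and are called, against 1 of 16 mitochondrial genes.

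Mitochondrial genes were called in both directions at medium MYC. Of 16 genes, 1 was called higher and 4 lower, 31.2% of them in all, and the median change was -0.03. The share called is near the 26.3% of all tested genes, of which 11.7% were called higher and 14.6% lower. CARS2 fell by 0.24 (SE 0.05, limma adjusted p = 0.00189), from 548.7, 620.7, 669.5 and 612.2 in controls to 548.7, 530.5, 500.3 and 496.1. The highest inhibitor library equalled the lowest control. LARS2, for leucine, fell by 0.18 (SE 0.05, limma adjusted p = 0.00517), and its groups did not overlap, a pattern in the lower direction in 15.4% of all tested genes. CARS2 and LARS2 were called in each of the 22 alternative fits.

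The other 3 calls were near the threshold. FARS2 read 58.41, 55.65, 59.51 and 63.19 in controls and 48.93, 38.74, 57.44 and 37.31 with the inhibitor, a change of -0.39 (SE 0.14, limma adjusted p = 0.0484). Of the inhibitor libraries, 1 lay within the control range. WARS2, for tryptophan, read 167.9, 176.4, 164.5 and 199.4 in controls against 216.7, 216.6, 211 and 178.5, a change of 0.21 (SE 0.08, limma adjusted p = 0.0465). Here too 1 inhibitor library lay within the control range. IARS2 stood at -0.13 (limma adjusted p = 0.0319). FARS2 was no longer called without any 1 of the 8 libraries other than inhibitor replicate 3, at changes of -0.43 to -0.30. WARS2 lost its call without control replicate 1, 2 or 3 or inhibitor replicate 1, 2 or 3 (0.18 to 0.21), and IARS2 without control replicate 1, 2 or 4 or inhibitor replicate 1 or 2 (-0.13 to -0.10). Alternative settings also removed these calls, in 9 of 13 for FARS2 and in 7 of 14 each for WARS2 and IARS2. EARS2, at 0.16, was called higher without control replicate 3 (0.19) or inhibitor replicate 4 (0.22) and in 5 of the 14 alternative settings, with equal library totals, quantile normalization, a filter at a mean of 100 and GC correction with or without a replicate block (0.16 to 0.18). SEs were larger for the mitochondrial genes, with a median of 0.06 against 0.04 for the cytosolic genes, so a change of the same size was less likely to be called.

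Comparing the cytosolic and mitochondrial enzyme for the same amino acid removes the difference in which amino acids each class covers. In 13 such pairs at medium MYC, the cytosolic gene had the larger change in 10, with a median difference of 0.10. The widest gap was between CARS1 (0.40) and CARS2 (-0.24), followed by IARS1 (0.33) and IARS2 (-0.13). The order was the other way for the histidine, asparagine and arginine pairs. At high MYC the cytosolic gene had the larger change in 6 of the 13 pairs. These are counts of estimates, not of tested differences.

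At high MYC, the inhibitor lowered 4 of the 19 cytosolic synthetase genes and raised none, and the remaining 15 were not called. Over all tested genes the calls made up 26.8%, with 10.5% higher and 16.3% lower. The share of cytosolic genes called was 21.1%, near that of all genes. The median change was -0.02, as it was over all tested genes.

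AARS1 read 2285, 2300, 2257 and 2263 normalized counts in the high-MYC controls and 1779, 1770, 1803 and 1791 with the inhibitor. The groups were far apart relative to their spread, and the gene fell by 0.35 (SE 0.03, limma adjusted p = 2.16e-09). WARS1 read 1198, 1245, 1245 and 1222 in controls against 1021, 1053, 995.7 and 1015, a change of -0.27 (SE 0.03, limma adjusted p = 3.96e-06). YARS1 read 1643, 1738, 1660 and 1662 against 1406, 1467, 1452 and 1421, a change of -0.22 (SE 0.03, limma adjusted p = 2.15e-05). In 6 of the 19 cytosolic genes the inhibitor libraries lay wholly below the controls, as they did in 15.8% of all tested genes. These were AARS1, WARS1, YARS1, GARS1, FARSA (-0.12) and TARS1 (-0.09), of which FARSA and TARS1 were not called. GARS1 was the fourth call, at -0.09 (limma adjusted p = 0.0467). It lost the call without any 1 of the 8 libraries other than high-MYC control replicate 2, at changes of -0.10 to -0.07, and in 8 of the 14 alternative settings.

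Whether any cytosolic gene rose at high MYC depended on the scaling of the libraries. EPRS1 (0.09, limma adjusted p = 0.059) and SARS1 (0.11, limma adjusted p = 0.0537) lay just outside the threshold. Both were called higher after scaling to equal library totals, with size factors taken from the tested genes, after quantile normalization and in edgeR on the recovered reads. Quantile normalization, which forces the same distribution on every library, also called LARS1 higher at 0.10, and over all genes it changed the split from 1442 higher and 2247 lower to 1727 higher and 1770 lower. Leaving out high-MYC inhibitor replicate 4 had the same effect on EPRS1 (0.11) and SARS1 (0.15), and leaving out control replicate 1 called SARS1 (0.14). A filter at a mean of 100 and the GC correction also called SARS1 higher, at 0.11 and 0.14.

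Of the 16 mitochondrial genes 1 was called at high MYC, 6.25%, against 26.8% of all tested genes (10.5% higher and 16.3% lower). MARS2, for methionine, read 685.4, 715.4, 710.8 and 749.9 in controls and 862.5, 803.1, 877 and 820.2 with the inhibitor. Every inhibitor library lay above every control, as in 10.9% of all tested genes, and the gene rose by 0.23 (SE 0.06, limma adjusted p = 0.00315). The others ranged from -0.21 for SARS2, for serine, to 0.09 for EARS2. In 2 of them, SARS2 and AARS2 (-0.12), the inhibitor libraries lay wholly below the controls, and neither was called. The same pattern held in 15.8% of all tested genes. The median over the 16 was -0.05.

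The response of the cytosolic genes differed between the MYC levels. The difference was tested directly, as the change at high MYC minus the change at medium MYC. It was called in 9 of the 19 cytosolic genes, 47.4%, and in each of the 9 the change at medium MYC was the more positive. Among all tested genes 8.63% were called, 3.31% with a more positive change at high MYC and 5.33% at medium MYC. No mitochondrial gene was called in limma, edgeR or DESeq2, though 2 of the 16 had an unadjusted limma p under 0.05. The median difference was -0.15 over the cytosolic genes, -0.05 over the mitochondrial genes and -0.02 over all tested genes.

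GARS1 had the largest difference among the synthetases. It read 1676, 1628, 1764 and 1651 in high-MYC controls and 1572, 1596, 1579 and 1542 with the inhibitor, whereas at medium MYC the counts given earlier rose. The difference was -0.56 (SE 0.05, limma adjusted p = 8.05e-08). WARS1 fell at high MYC and rose at medium MYC, from 2154, 2163, 2211 and 2196 to 2667, 2495, 2805 and 2570, so that its difference was -0.54 (SE 0.05, limma adjusted p = 1.14e-07). CARS1 read 442.1, 447, 470.2 and 471.6 in high-MYC controls and 462.4, 410.4, 392.7 and 478.2 with the inhibitor. Those libraries overlapped, and against its rise at medium MYC the difference was -0.47 (SE 0.08, limma adjusted p = 0.000288).

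The 9 genes reached the difference in several ways. WARS1 and YARS1 were called lower at high MYC and higher at medium MYC, and so was GARS1, with the weak call at high MYC described earlier. AARS1 was called at high MYC only, with changes of -0.35 and 0.04, and its difference was -0.39. CARS1, EPRS1, IARS1 and MARS1 were called at medium MYC only, with differences of -0.47, -0.29, -0.32 and -0.33. TARS1, with changes of -0.09 and 0.10, had the smallest called difference, -0.19 (limma adjusted p = 0.0245). It was no longer called without high-MYC control replicate 2, high-MYC inhibitor replicate 4, medium-MYC control replicate 1 or 2, or medium-MYC inhibitor replicate 4, at -0.18 to -0.16. The TARS1 difference also lost its call in 3 of the 14 alternative settings. FARSA, at -0.15, was called without medium-MYC control replicate 3 (-0.23), and CARS2 without medium-MYC control replicate 1 (0.24).

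SARS1 and LARS1 were called higher at medium MYC and not at high MYC, but their differences of -0.14 (limma adjusted p = 0.178) and -0.08 (limma adjusted p = 0.417) were not called. The difference was 0.00 for KARS1 (95% interval -0.09 to 0.09) and -0.01 for QARS1 (95% interval -0.11 to 0.08). Both intervals leave out the differences of GARS1 and WARS1.

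**Figure D3:**
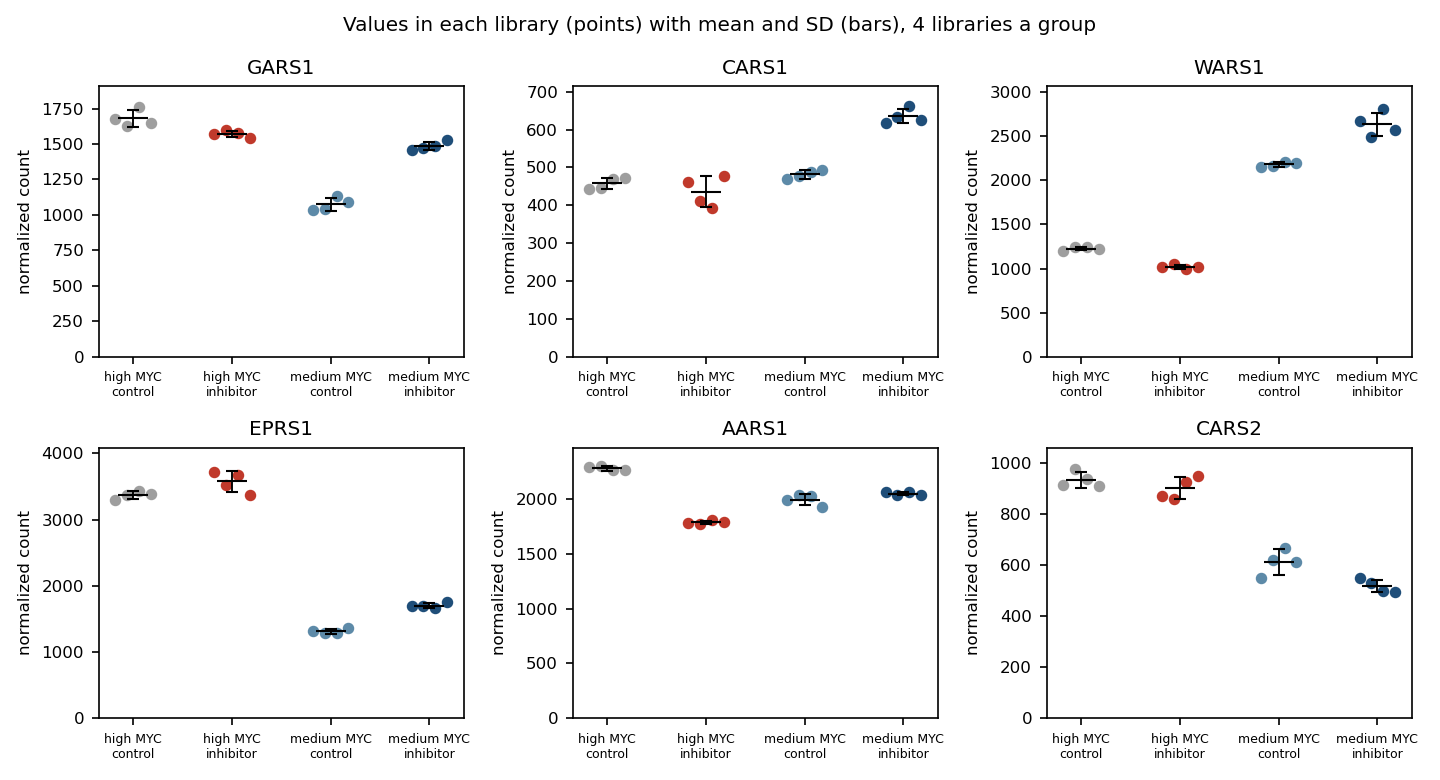
Normalized counts of 5 cytosolic genes and of CARS2 in each library (vertical axes from 0). Points are libraries, horizontal bars means and vertical bars SDs (4 libraries a group). GARS1, CARS1, WARS1 and EPRS1 were higher with the inhibitor at medium MYC, AARS1 was lower with it at high MYC, and CARS2 was lower with it at medium MYC.

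Promoters of the cytosolic, mitochondrial and scaffold genes were searched for a pair of motifs with known binding factors. One is TGATGNAA, the core of the C/EBP-ATF response element that ATF4 binds as a heterodimer, and the other is CACGTG, the E-box bound by MYC with MAX. Both strands were searched in the 300 bases from 250 before to 50 after each start in the RefSeq promoter set of GRCh38.p14, which held 33 of the 38 genes. LARS1, VARS1, YARS1, AARS2 and VARS2 had no entry. TGATGNAA occurred in 6 of 16 cytosolic promoters, 37.5%, in 1 of 14 mitochondrial promoters, that of YARS2, and in none of the 3 scaffold promoters. It occurred in 3.67% of all 27305 promoters. The other 10 cytosolic promoters had no match. The 6 matches are shown so that their letters and positions can be compared. Each window runs 5′ to 3′ on the gene's strand, with the match in capitals:
AARS1 promoter, minus strand, chr16:70289666-70289713: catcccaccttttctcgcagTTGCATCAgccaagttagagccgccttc
CARS1 promoter, minus strand, chr11:3057407-3057436: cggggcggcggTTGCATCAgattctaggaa
IARS1 promoter, minus strand, chr9:92293698-92293730: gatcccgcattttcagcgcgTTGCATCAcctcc
MARS1 promoter, plus strand, chr12:57488053-57488082: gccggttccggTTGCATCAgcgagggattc
NARS1 promoter, minus strand, chr18:57621804-57621833: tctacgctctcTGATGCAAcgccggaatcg
TARS1 promoter, plus strand, chr5:33440956-33440985: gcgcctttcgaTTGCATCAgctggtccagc

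The matched letters are TTGCATCA, the reverse complement of TGATGCAA, in 5 of these promoters and TGATGCAA in NARS1. The match began 187 bases before the start in AARS1 and within 15 bases of it in the other 5. Among the 6 cytosolic genes with the motif, 5 had a called difference in response, all but NARS1, and 4 were called higher at medium MYC. Among the 10 matched cytosolic genes without it, 3 had a called difference and 5 were called higher at medium MYC. Of all tested genes, 8.63% had a called difference and 11.7% were called higher at medium MYC. Whether genes with and without the motif differ was not tested. GARS1, WARS1 and EPRS1 are among those 10. A match is a run of letters in this window, and no binding was measured.

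The E-box CACGTG occurred in 1 of 16 cytosolic promoters, 3 of 14 mitochondrial promoters and 7.43% of all promoters. The 4 genes are shown because all 4 were called lower at medium MYC among controls, as most synthetase genes were. The E-box is in capitals:
IARS1 promoter, minus strand, chr9:92293858-92293903: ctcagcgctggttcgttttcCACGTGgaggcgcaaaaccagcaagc
CARS2 promoter, minus strand, chr13:110706502-110706529: gctgggatgcaCACGTGcttcgctaaca
EARS2 promoter, minus strand, chr16:23557351-23557385: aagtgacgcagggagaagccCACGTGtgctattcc
MARS2 promoter, plus strand, chr2:197705338-197705368: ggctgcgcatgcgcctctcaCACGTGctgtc

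Lower MYC went with lower synthetase RNA in both classes. In medium-MYC controls against high-MYC controls, 14 of 19 cytosolic genes were called lower and 2 higher, and 12 of 16 mitochondrial genes were called lower and 1 higher. Calls made up 76.2% of all tested genes here, 38.9% in the higher and 37.3% in the lower direction. Lower calls made up 73.7% of the cytosolic and 75% of the mitochondrial genes. The median changes were -0.64 and -0.69, against 0.02 over all tested genes. This comparison uses the same control libraries as the inhibitor comparisons, so the values are given side by side and not correlated with them.

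LARS1 fell most among the cytosolic genes, from 3089, 3036, 3257 and 3050 in high-MYC controls to 1153, 1082, 1050 and 1119 at medium MYC. No library came near the other group, and the change was -1.50 (SE 0.04, limma adjusted p = 1.29e-19), or 2.82-fold lower. VARS1 read 2717, 2641, 2544 and 2500 against 904.4, 916.9, 1042 and 896.9, a change of -1.47 (SE 0.05, limma adjusted p = 3.02e-17). EPRS1 read 3291, 3374, 3434 and 3381 against the medium-MYC counts given earlier, a change of -1.36 (SE 0.03, limma adjusted p = 1.67e-19). IARS1 (-1.28) and FARSB (-1.18) were also more than 1 log2 unit lower. Those between were YARS1 (-0.87), NARS1 (-0.82), FARSA (-0.77), KARS1 (-0.70), GARS1 (-0.64) and QARS1 (-0.54). TARS1 (-0.22), AARS1 (-0.19) and SARS1 (-0.14) were called at smaller changes. In all 14 the libraries of the groups did not overlap, as in 33.6% of all tested genes in this direction.

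Some cytosolic genes departed from this. WARS1, whose enzyme is also known as an interferon-induced protein, rose by 0.83 (SE 0.03, limma adjusted p = 1.64e-15), or 1.78-fold, from 1228 ± 22.5 to 2181 ± 27 (SD, n = 4). HARS1 rose by 0.18 (SE 0.04, limma adjusted p = 0.00125), with non-overlapping libraries, as in 35.6% of all tested genes in this direction. CARS1 (0.07), RARS1 (0.03) and MARS1 (-0.04) were not called. HARS1 lies head to head with HARS2, with RefSeq starts 85 bases apart, and the mitochondrial partner stood at 0.00 (SE 0.08).

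**Figure D4:**
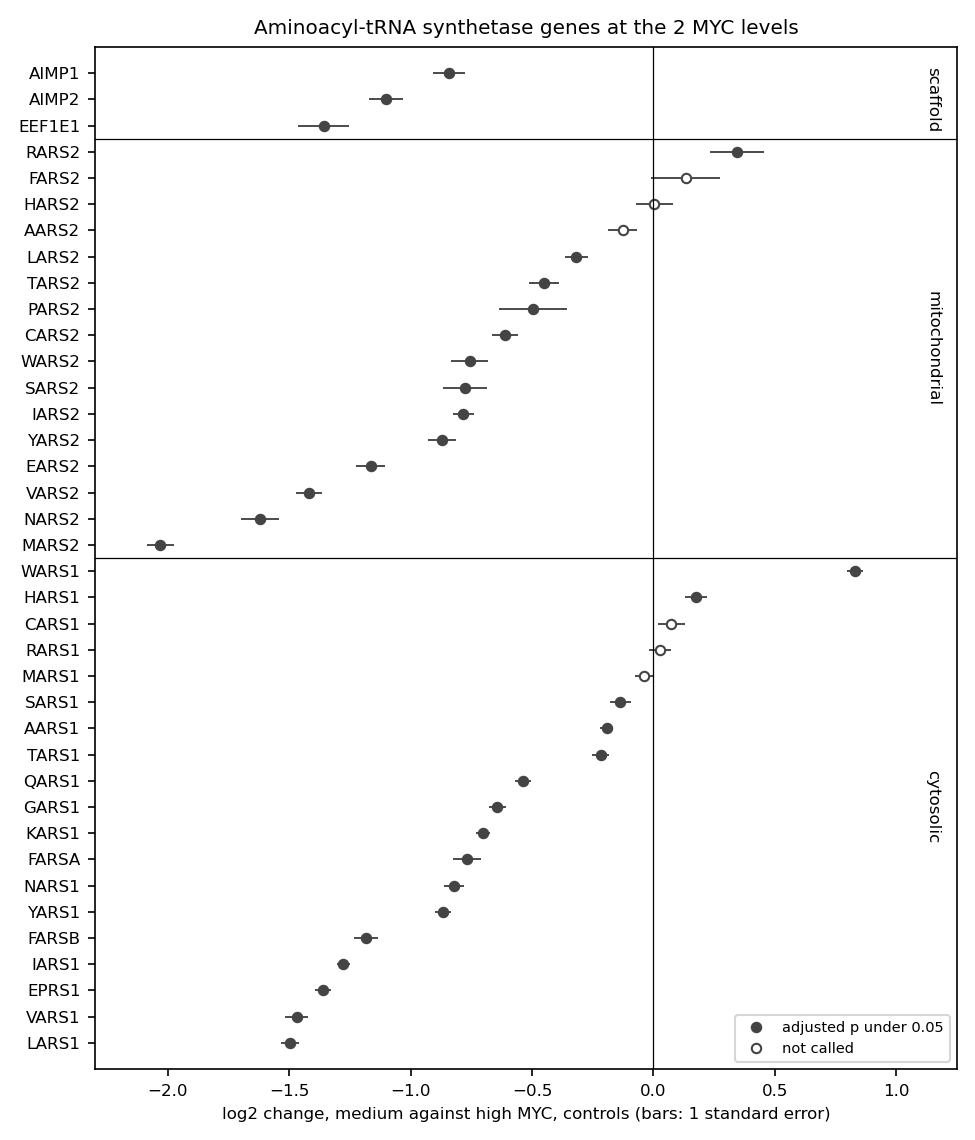
Change in each gene in medium-MYC against high-MYC controls (horizontal axis, log2 scale, bars 1 SE), by class. Filled points are called at a limma adjusted p under 0.05. Most genes of each class lie to the left of 0, with MARS2 lowest at -2.03 and WARS1 highest at 0.83.

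Among mitochondrial enzymes MARS2 fell most of all 38 genes, from 685.4, 715.4, 710.8 and 749.9 in high-MYC controls to 179.4, 166.1, 182 and 169.9, a change of -2.03 (SE 0.06, limma adjusted p = 1.34e-18), or 4.09-fold lower. NARS2, for asparagine, fell from 450.4, 499.8, 562.9 and 549.9 to 169, 161.8, 151.4 and 185.5, a change of -1.62 (SE 0.08, limma adjusted p = 2.14e-14). VARS2, for valine, fell from 881.2, 931, 818.9 and 936.6 to 323.4, 319.3, 357.1 and 331.5, a change of -1.42 (SE 0.06, limma adjusted p = 6.36e-16). In each the groups were apart by far more than their spread. EARS2, for glutamate, was called lower at -1.17, and YARS2 (-0.87), IARS2 (-0.78), SARS2 (-0.78), WARS2 (-0.76), CARS2 (-0.61), PARS2 (-0.49), TARS2 (-0.45) and LARS2 (-0.32) were called lower too. RARS2, for arginine, was called higher at 0.34 (SE 0.11, limma adjusted p = 0.00736) with overlapping libraries. FARS2 (0.13), HARS2 (0.00) and AARS2 (-0.13, limma adjusted p = 0.0567) were not called. AARS2 was called lower without medium-MYC control replicate 3 (-0.16) and in 4 of the 14 alternative settings, in edgeR, without the mean trend and with GC correction with or without a replicate block (-0.16 to -0.13).

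The cytosolic and mitochondrial enzymes for 1 amino acid often differed in their relation to MYC level. For methionine, MARS1 stood at -0.04 and MARS2 at -2.03. For tryptophan, WARS1 was at 0.83 and WARS2 at -0.76. For leucine the order was reversed, with LARS1 at -1.50 and LARS2 at -0.32. For valine (-1.47 and -1.42) and tyrosine (-0.87 and -0.87) the estimates were nearly the same. The cytosolic gene had the larger value in 8 of the 13 pairs.

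The 3 scaffold genes were lower in the medium-MYC groups and were not called for the inhibitor. AIMP1 read 460.2, 530.1, 582.7 and 498.5 in high-MYC controls, 601.1, 570.1, 575.1 and 573.8 with the inhibitor, 293.1, 289.4, 271.3 and 297.1 in medium-MYC controls and 295.9, 278.1, 285.1 and 334.8 with the inhibitor. AIMP2 read 406, 384.1, 392.9 and 374.4, then 350.6, 364.9, 368.3 and 404.4 at high MYC, and 182.5, 163.5, 191.7 and 187.1, then 155, 177.8, 188 and 166.4 at medium MYC. EEF1E1 read 195.1, 231.3, 227.4 and 235.8, then 233.4, 260.7, 252.2 and 226.6 at high MYC, and 81.36, 79.62, 83.14 and 100.9, then 106, 81.46, 79.38 and 98.82 at medium MYC. In each gene both medium-MYC groups lay below both high-MYC groups. The changes in medium-MYC against high-MYC controls were -0.84 for AIMP1, -1.10 for AIMP2 and -1.36 for EEF1E1, with limma adjusted p values of 1.55e-10, 3.27e-12 and 8.5e-11. Of all tested genes, 37.3% were called lower in this comparison, and in 33.6% the medium-MYC controls lay wholly below the high-MYC controls.

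With the inhibitor, the libraries of all 3 scaffold genes overlapped their controls at both MYC levels. So did those of most tested genes, 9930 of 13765 at medium MYC and 10095 at high MYC. The changes at medium MYC were 0.05 for AIMP1 (95% interval -0.09 to 0.19), -0.08 for AIMP2 (-0.22 to 0.07) and 0.08 for EEF1E1 (-0.14 to 0.29). At high MYC AIMP1 stood at 0.17 (limma adjusted p = 0.0656), and it was called higher in edgeR at 0.18, after quantile normalization at 0.21 and without high-MYC control replicate 3 at 0.23. DESeq2 called none of the 3 at either level. AIMP1 was the only scaffold gene with an unadjusted limma p under 0.05 at high MYC, and none had one at medium MYC. EEF1E1 shares 393 bases with a readthrough gene, which limits how far its reads can be assigned.

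Other genes of the charging pathway were followed in lists by role. Of 16 genes of the amino acid response, the transporters, enzymes and factors around ATF4, 12 were called higher and 1 lower with the inhibitor at medium MYC, against 1 higher and 4 lower at high MYC. The gene called lower at medium MYC was TRIB3, from 256 ± 31.8 to 200 ± 12 normalized counts (SD, n = 4). At high MYC TRIB3 went from 410 ± 15.5 to 289 ± 7.48. The shares of all tested genes called were 11.7% higher and 14.6% lower at medium MYC, and 10.5% and 16.3% at high MYC. The 5 calls at high MYC, of 16, are near the 26.8% of all genes. The difference in response was called in 11, all more positive at medium MYC, where 5.33% of all tested genes were called in that direction. ATF4 itself rose from 1545 ± 51.9 to 1960 ± 49.1 at medium MYC (0.34) and stood at -0.08 at high MYC, with a difference of -0.42 (limma adjusted p = 2.47e-06). PSAT1, of serine synthesis, changed by 1.81 at medium and -0.20 at high MYC (difference -2.01). ASNS, asparagine synthetase, stood at 1.09 and -0.07 (difference -1.16), and SLC7A5, a transporter of large neutral amino acids, at 0.84 and -0.04 (difference -0.88). These 3 genes are the ones of the list with the smallest p for this difference. The list was chosen with earlier results of these data known.

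Of 6 genes for cytosolic elongation factors and their subunits, 5 were called higher at medium MYC and 4 at high MYC, against 11.7% and 10.5% of all tested genes. EEF1A1, which delivers the charged transfer RNA, rose by 0.30 and 0.13, and EEF2, which drives translocation, by 0.32 and 0.17. Their differences of -0.17 and -0.15 were called, while that of EEF1D (-0.11, limma adjusted p = 0.229) was not. All 6 were called lower at medium than at high MYC in controls, against 37.3% of all tested genes.

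Of 9 mitochondrial translation factors, 2 were called higher at medium MYC, and 2 higher and 1 lower at high MYC. These shares are close to the 26.3% and 26.8% of all tested genes called. MTIF3, an initiation factor, changed by -0.29 at high MYC and stood at 0.10 at medium MYC. MTRF1L, a release factor, rose by 0.46 at high MYC and stood at 0.07 at medium MYC. TUFM, the mitochondrial elongation factor Tu, was at -0.03 and 0.08. No difference in response was called in limma, though 2 of the 9 had an unadjusted p under 0.05. With MYC level, 8 were called lower and 1 higher in medium-MYC controls, against 37.3% and 38.9% of all tested genes.

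Of 10 accessory genes of charging, such as the subunits of the amidotransferase that makes mitochondrial glutaminyl-tRNA, 1 was called lower at each MYC level and none higher, against 26.3% of all tested genes called at medium and 26.8% at high MYC. DTD1, which removes D-amino acids from transfer RNA, fell by 0.30 at medium MYC and stood at -0.09 at high MYC. AARSD1, an editing protein for mischarged alanine transfer RNA, stood at 0.18 and -0.08, and SEPSECS, of selenocysteine synthesis, at 0.23 and -0.00. No difference was called in limma, and 1 of the 10 had an unadjusted p under 0.05. In controls 8 were called lower at medium MYC, against 37.3% of all tested genes.

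Of 25 genes for processing, modifying and exporting transfer RNA, 5 were called higher and 2 lower at medium MYC, and 3 higher and 1 lower at high MYC. At medium MYC this is near the 26.3% of all tested genes called, and at high MYC it is below the 26.8%. The difference was called in XPOT, the export receptor of transfer RNA, and in RTCB, the ligase that joins the pieces of spliced transfer RNA. XPOT changed by 0.47 at medium MYC and 0.03 at high MYC, from 817 ± 19.9 to 1134 ± 40.8 and from 2859 ± 50.7 to 2916 ± 113 normalized counts. RTCB stood at -0.01 and fell by 0.28 at high MYC. NSUN2, a transfer RNA methyltransferase, rose by 0.10 at high MYC and stood at -0.03 at medium MYC, a difference that was not called. In controls 20 of the 25 were called lower and 2 higher at medium MYC, against 37.3% and 38.9% of all tested genes. The total amount of RNA per cell was not measured, so each value is a share of the library and a change in RNA content per cell cannot be told apart from it.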

How the data were processed

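The table was deposited as normalized counts, 1 value per gene and library, and these deposited values are treated here as a signal. Per the submitters' processing notes, GRCh38, STAR 2.5.2a, RSEM 1.2.31 and DESeq2 1.16.1 were used, and the labels name total RNA, a Nugen cDNA kit and Illumina HiSeq. The annotation and the use of strand in counting are not given in the sources used here. In every library 100% of values were whole multiples, within 0.01 reads, of 1 step, so the values are counts divided by 1 factor per library and whole reads could be recovered (size factors 0.858 to 1.33).

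Genes were named through the given gene tables (56948 of 58051 identifiers), and positions and lengths came from GENCODE 29 (57447 identifiers). Length was that of the basic transcript with the longest coding sequence. Limma 3.58.1 in R 4.3.3 was fitted to log2(value + 1) of 13765 genes with a mean of at least 10, with 4 group means over 16 libraries, a mean-variance trend and two-sided p-values, Benjamini-Hochberg adjusted over all tested genes. Alternatives changed the scaling, pseudocount, filter, trend, libraries in the fit, replicate block and GC correction, used edgeR 4.0.16 or DESeq2 1.42.0 on recovered reads, or left out each library. The fits were tested on simulated data.

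Values in every library are given, per comparison, for up to 3 cytosolic and up to 3 mitochondrial genes with the largest called change at a mean of at least 50, and for the scaffold genes. From each pathway list the 3 genes with the smallest p for the difference in response are named. ATF4, DDIT3 and TRIB3 were named after their values were seen. The members and lists were chosen with earlier results of these data known.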

Additional observations from a re-analysis of the deposited data

Results flagged for a closer look

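In 9 of the 152 gene-and-group sets of 4 libraries examined, 1 library stood apart from the other 3 by Dixon's test at 95%, which chance gives in about 1 set of 20. Among cytosolic genes, FARSB read 1206 in high-MYC control replicate 4 against 1319 to 1333 in the others, and LARS1 read 3118 in high-MYC inhibitor replicate 4 against 3248 to 3267. At medium MYC, HARS1 read 901.7 in inhibitor replicate 1 against 837.7 to 848.3, SARS1 read 738.6 in control replicate 4 against 720.8 to 722.9, and VARS1 read 1042 in control replicate 3 against 896.9 to 916.9. Among mitochondrial genes, EARS2 read 312.6 against 374 to 379.1 and WARS2 read 178.5 against 211 to 216.7, both in medium-MYC inhibitor replicate 4. Of the scaffold genes, AIMP1 read 601.1 in high-MYC inhibitor replicate 1 against 570.1 to 575.1, and EEF1E1 read 100.9 in medium-MYC control replicate 4 against 79.62 to 83.14.

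In 9 cytosolic genes the inhibitor's change differed between the MYC levels by the limma test of the difference, high minus medium MYC on the log2 scale. The differences were -0.56 for GARS1, -0.54 for WARS1, -0.47 for CARS1, -0.39 for AARS1, -0.33 for YARS1, -0.33 for MARS1, -0.32 for IARS1, -0.29 for EPRS1 and -0.19 for TARS1. Over the 30 alternative fits, the highest adjusted p was 1.6e-05 for GARS1, 0.00199 for CARS1, 0.00296 for MARS1, 0.00372 for EPRS1 and 0.068 for TARS1.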

How the results depend on the processing

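Of 288 alternative counts of called genes, 275 stayed within 1.5 times the reported count and 13 did not, and all 13 concerned mitochondrial genes. The 5 mitochondrial genes called at medium MYC became 2 with no filter, 3 without the mean trend, 2 with the compared groups only, 3 in edgeR, 2 in DESeq2, and 2 to 5 with 1 library left out. The count was 2 without medium-MYC control replicate 1 or 2 or inhibitor replicate 1 or 2, and 3 without control replicate 4. The 1 called at high MYC became 2 with the compared groups only, and the 0 called for the difference became 0 to 1 with 1 library left out. For single genes, 3511 of 3640 alternative values kept their side of the threshold, 89 lost and 40 gained a call, and none that was called changed sign. Changes that were not called did change sign in places, as for AARS2 with the inhibitor at medium MYC (-0.10 to 0.02). The cause of these changes was not tested. The replicate numbers did not pair the libraries (residual correlations of same-numbered libraries from -0.154 to 0.239, and most libraries correlated best with another number). With a replicate block, 10 cytosolic and 3 mitochondrial genes were called at medium MYC, 3 and 1 at high MYC, 8 and 0 for the difference and 16 and 13 for MYC level. FARS2, near 50 normalized counts, was among the least precise. With a filter at a mean of 100, FARS2 and PARS2 were not tested.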
